A study of Mus musculus with 18 samples.

Results

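The endogenous opioid system of the hypothalamus was followed through 8 genes: the peptide precursors Penk, Pdyn and Pnoc, the receptors Oprm1, Oprk1, Oprd1 and Oprl1, and Cnr1, the cannabinoid receptor that signals through the same class of G proteins. They were taken by symbol from 56980 deposited features, keeping for each symbol the feature with the largest total count, and 6 of the 8 had enough reads to be tested. Whole hypothalamus was collected from male wild-type C57BL/6JGpt mice aged 7 months, 6 per group, with 1 library per animal. DIO+ Vehicle and DIO+ TN-783 mice ate a fat-rich diet from an age of 6 weeks for at least 16 weeks, which makes this strain obese (DIO, diet-induced obesity). They were accustomed to handling by 14 days of vehicle gavage and then received either vehicle or TN-783 at 50 mg/kg by gavage 2 times a day. TN-783 blocks NLRP3, the sensor protein of an inflammasome. Dosing lasted 29 days per the labels' protocols and 28 days per the deposited sample table. Lean Control mice of the same strain, sex and age ate chow and received no drug, so diet and dosing cannot be told apart in any comparison with them. The labels do not say whether lean mice had the vehicle gavage that preceded dosing.

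Opioid peptides are cut from large precursor proteins at pairs of basic residues. Enkephalins from Penk act mainly on the delta and mu receptors (Oprd1, Oprm1), dynorphins from Pdyn on the kappa receptor (Oprk1), and nociceptin from Pnoc on the nociceptin receptor (Oprl1). All of these receptors, and Cnr1, couple to inhibitory Gi/o proteins that lower cyclic AMP, open potassium channels and close calcium channels. In the hypothalamus these systems act on feeding, stress and water balance, and dynorphin is made in vasopressin, orexin and kisspeptin neurons among others.

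What separates the 3 precursors as ligand sources can be read from their coding sequences. Opioid peptides proper begin with tyrosine, glycine, glycine and phenylalanine, whereas nociceptin has phenylalanine in place of the tyrosine. In the GENCODE vM21 mouse transcripts (GRCm38), an in-frame search of the coding strand for TANGGNGGNTTN, in which the third bases of the tyrosine and phenylalanine codons had to be T or C, found 7 copies in Penk, 3 in Pdyn, 1 in the related precursor Pomc and 0 in Pnoc. The motif for the nociceptin start, TTNGGNGGNTTN with the same limit on the outer codons, was found 1 time in Pnoc and 0 times in the other 3 genes. A stretch cannot match both, because they differ in the second base. Of 21592 coding sequences, 71 (0.329%) held the first motif, and only Penk, Pdyn, Krtap19-2 and Krtap19-4 held at least 3 copies, while 107 (0.496%) held the second. Each copy in the 4 precursors directly followed 2 codons for lysine or arginine. The sequences below show every copy, 5′ to 3′, with the pair of basic codons before it and the next 3 codons after it, and with capitals marking the 4 codons of the opioid or nociceptin start.
Penk copy 1: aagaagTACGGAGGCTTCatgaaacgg
Penk copy 2: aaacggTACGGAGGCTTCatgaagaag
Penk copy 3: aagaggTATGGCGGCTTCatgaagaag
Penk copy 4: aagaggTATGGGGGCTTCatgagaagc
Penk copy 5: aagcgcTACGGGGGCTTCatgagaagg
Penk copy 6: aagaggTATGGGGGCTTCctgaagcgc
Penk copy 7: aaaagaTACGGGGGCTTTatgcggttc
Pdyn copy 1: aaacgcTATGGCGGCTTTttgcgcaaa
Pdyn copy 2: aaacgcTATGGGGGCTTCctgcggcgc
Pdyn copy 3: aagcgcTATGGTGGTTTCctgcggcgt
Pnoc copy 1: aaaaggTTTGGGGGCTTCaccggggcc
Pomc copy 1: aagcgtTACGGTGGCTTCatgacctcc
The codon after the capitals sets the kind of enkephalin start. It was the methionine codon atg in the Penk copies other than copy 6, and a leucine codon (ctg or ttg) in Penk copy 6 and in all 3 Pdyn copies. Penk lies on chromosome 4, where it overlaps A830012C17Rik, an opposite-strand transcript with 2 counts here. Pdyn lies on chromosome 2 and Pnoc on chromosome 14.

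The libraries counted 3' ends of poly(A) RNA. Totals ran from 2070041 to 3695785 counts in lean, 1699712 to 2761474 in DIO+ Vehicle and 1993528 to 3589795 in DIO+ TN-783 libraries. A few libraries stood apart. Lean Control replicate 6 had an RNA integrity score of 10, the highest of the 18, and the lowest Penk, Pdyn and Oprk1 of its group. Its oligodendrocyte markers summed to 6197 CPM (read counts relative to the library total, with totals scaled by the trimmed mean method), against 2407 to 3098 CPM in the other 5 lean libraries, and its astrocyte markers to 3264 CPM, against 2650 to 2780 CPM. Its general neuron, GABA neuron and hypothalamus markers were the lowest of the lean group (3891, 415 and 510 CPM, against at least 4235, 483 and 609 CPM in the others), and the part of this make-up in the results was not tested. DIO+ Vehicle replicates 2 and 4 held pituitary transcripts, with prolactin (Prl) at 1773 and 1273 CPM, against at most 30.2 CPM in any other library. The hypothalamic markers Otp, Pmch and Nkx2-1 were detected in every library, with group means of 45.2 to 59.9, 112 to 177 and 13.1 to 14.2 CPM. Across all tested genes, 1 of 11835 passed a Benjamini-Hochberg adjusted p of 0.05 for DIO+ Vehicle versus Lean Control (0.00845%) and 0 (0%) passed for DIO+ TN-783 versus DIO+ Vehicle in edgeR's quasi-likelihood test.

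No opioid gene, and not Cnr1, passed that test in any comparison. For DIO+ Vehicle versus Lean Control, 0 of the 6 tested genes passed, and 2 of the 6, Pdyn and Oprl1, lay below an unadjusted p of 0.05, where 10.9% of all tested genes did. Fitted log2 differences of all 6 were below 0, with a median of -0.40, while 48.9% of all tested genes were below 0 and the median of all was 0.0072. The lowest adjusted p among the 6 was 0.236 (edgeR), for Oprl1. Because the samples are whole tissue, fewer cells that make a transcript and less of it per cell cannot be told apart here.

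**Figure D1:**
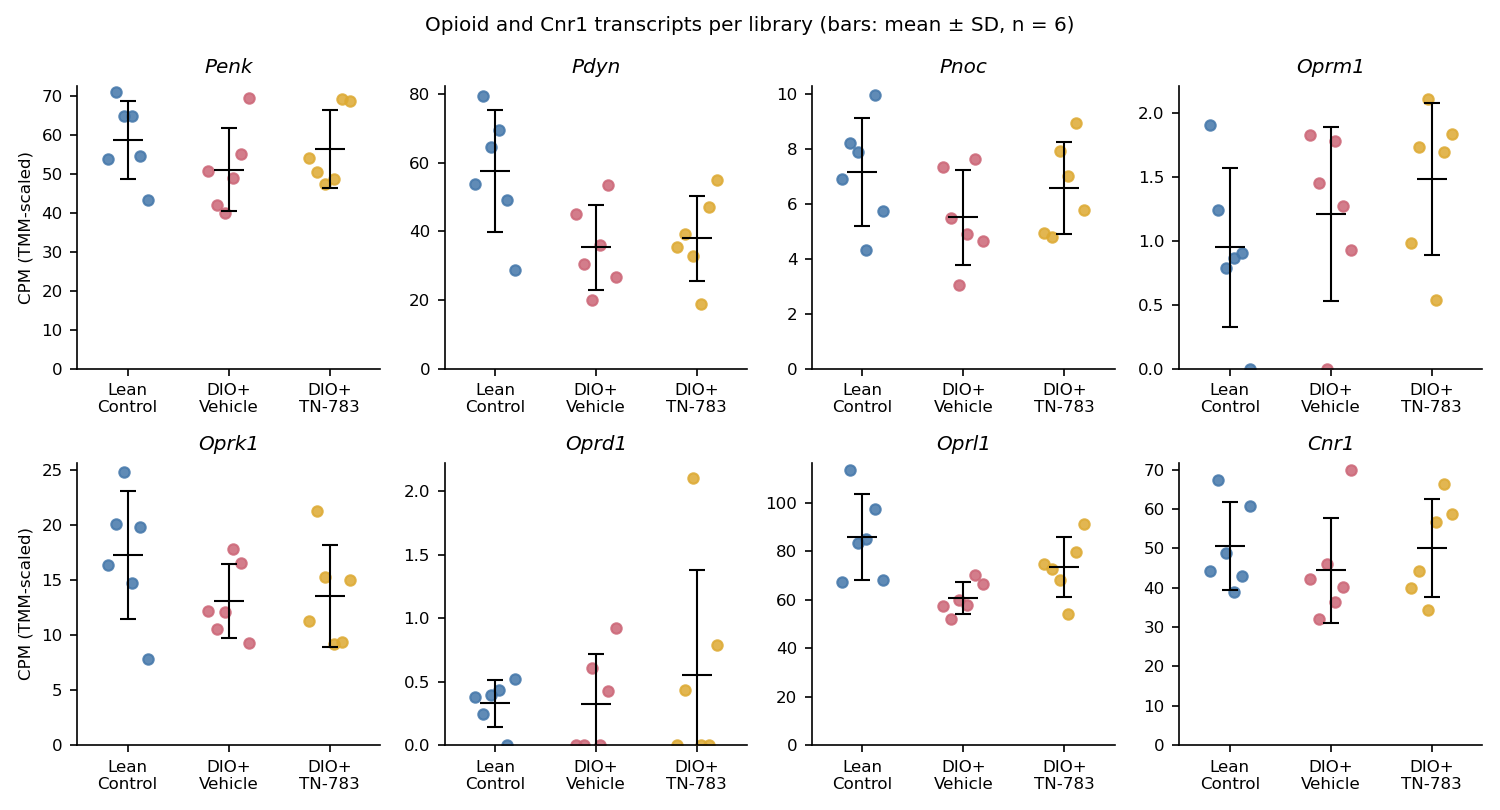
CPM of the 8 genes in each of 18 libraries (points) by group, with the mean and SD of 6 libraries as bars, on linear axes from 0 that differ between panels and cut the error bar of Oprd1 at 0. Pdyn averaged 57.6 CPM in lean mice and 35.4 and 38.05 CPM in the DIO groups, and Oprl1 averaged 85.9, 60.7 and 73.5 CPM, with points of the groups overlapping in every panel.

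Of the precursors Penk, Pdyn and Pnoc, Pdyn, the source of dynorphins, had the largest fitted difference between lean and obese mice. Its level ranged from 28.6 to 79.4 CPM in lean mice (median 59.3), from 20.0 to 53.5 CPM in DIO+ Vehicle mice (median 33.3) and from 18.9 to 54.9 CPM in DIO+ TN-783 mice (median 37.3). All 12 obese mice lay below the lean median, and the groups still overlapped, because Lean Control replicate 6 was at 28.6 CPM while the other 5 lean libraries were at 49.2 CPM or above. Means were 57.6 ± 17.9, 35.4 ± 12.3 and 38.05 ± 12.4 CPM (SD, n = 6 each). The log2 difference for DIO+ Vehicle versus Lean Control was -0.72 (SE 0.26, 95% interval -1.25 to -0.18, unadjusted p = 0.0113, edgeR adjusted p = 0.358), a ratio of 0.609. Both DIO groups in 1 comparison with lean mice gave -0.65 (SE 0.21, unadjusted p = 0.00654, edgeR adjusted p = 0.302). Without Lean Control replicate 6 that difference was -0.78 with an edgeR adjusted p of 0.0279, and 342 genes (2.85%) then passed as lower. With the RNA integrity score in the fit it was -0.45 with an edgeR adjusted p of 0.567, and these were the lowest and highest adjusted p over 30 alternatives.

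Penk, the enkephalin precursor, ranged from 43.2 to 71.0 CPM in lean (median 59.7), from 39.9 to 69.5 CPM in DIO+ Vehicle (median 49.8) and from 47.5 to 69.3 CPM in DIO+ TN-783 mice (median 52.3), and the ranges overlapped almost completely. The DIO+ Vehicle mean of 51.0 ± 10.7 CPM differed from the lean mean of 58.7 ± 10.1 CPM by a log2 value of -0.21 (95% interval -0.50 to 0.08, edgeR adjusted p = 0.576), so that a fall below a ratio of 0.707 or a rise above 1.06 lay outside the interval. Pnoc, the nociceptin precursor, rested on 5 to 33 counts per library. Its CPM ran from 4.33 to 9.93 in lean (median 7.39), from 3.02 to 7.64 in DIO+ Vehicle (median 5.18) and from 4.79 to 8.93 in DIO+ TN-783 mice (median 6.40). The log2 difference of Pnoc for DIO+ Vehicle versus Lean Control was -0.38 (SE 0.25, edgeR adjusted p = 0.564). In all, 5 of the vehicle libraries were under the median of the lean libraries.

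Of the receptors, Oprl1, the nociceptin receptor, had the smallest p. It ranged from 67.3 to 114 CPM in lean mice (median 84.5), from 52.1 to 70.4 CPM in DIO+ Vehicle mice (median 58.9) and from 54.0 to 91.5 CPM in DIO+ TN-783 mice (median 73.7). In all, 5 of the 6 vehicle libraries were below every lean library, and the sixth, at 70.4 CPM, overlapped the lean libraries at 67.3 and 68.2 CPM. Means were 85.9 ± 17.7, 60.7 ± 6.70 and 73.5 ± 12.5 CPM (SD, n = 6 each). For DIO+ Vehicle versus Lean Control the log2 difference was -0.51 (SE 0.13, 95% interval -0.78 to -0.23, unadjusted p = 0.000740, edgeR adjusted p = 0.236), a ratio of 0.704, and it ranked 37 of 11835 genes by p. The call depended on the procedure. With no expression filter the edgeR adjusted p was 0.0153 (60 genes, 0.161%, passed as lower), in limma voom with sample weights it was 0.0416 (0.541% lower), and in edgeR without Lean Control replicate 6 it was 0.0278 (150 genes, 1.25%, lower). In DESeq2 it was 0.0804. Across all 31 alternatives the adjusted p ran from 0.0153 to 0.539 and the log2 difference from -0.59 to -0.41.

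Oprk1, the dynorphin receptor, was at 7.81 to 24.9 CPM in lean (median 18.2), 9.26 to 17.8 CPM in DIO+ Vehicle (median 12.2) and 9.17 to 21.3 CPM in DIO+ TN-783 mice (median 13.1). All 6 vehicle libraries lay below the lean median, yet none was below the lowest lean library, which was again Lean Control replicate 6. The log2 difference for DIO+ Vehicle versus Lean Control was -0.42 (SE 0.23, 95% interval -0.90 to 0.06, edgeR adjusted p = 0.502). It was -0.13 with the RNA integrity score in the fit and -0.55 without Lean Control replicate 6.

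The mu and delta receptors were near the detection limit and did not pass the expression filter. Oprm1 had 0 to 7 counts per library and 16, 16 and 22 counts over the lean, DIO+ Vehicle and DIO+ TN-783 groups, or 1.02 (exact Poisson 95% interval 0.585 to 1.66), 1.25 (0.715 to 2.03) and 1.55 CPM (0.968 to 2.34), intervals that cover counting error only. Oprd1 had 5, 4 and 8 counts, or 0.320 (0.104 to 0.747), 0.313 (0.0852 to 0.800) and 0.562 CPM (0.243 to 1.11), and 7 of its 18 libraries were at 0. All these intervals overlap. In the fit with no filter the log2 difference for DIO+ Vehicle versus Lean Control was 0.27 (SE 0.60) for Oprm1 and -0.04 (SE 0.94) for Oprd1, with edgeR adjusted p of 0.939 and 1.00, so a difference was not detectable at this depth. In GENCODE vM21 Oprm1 overlaps Ipcef1, a gene on the opposite strand with 612 counts here. Strand use in counting was not given in the sources used here.

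Cnr1, through which endocannabinoids restrain transmitter release, ranged from 38.9 to 67.5 CPM in lean (median 46.6), from 32.1 to 69.9 CPM in DIO+ Vehicle (median 41.2) and from 34.3 to 66.3 CPM in DIO+ TN-783 mice (median 50.5). The groups overlapped over nearly their whole range, and the highest value of the 18 belonged to DIO+ Vehicle replicate 6. The log2 difference for DIO+ Vehicle versus Lean Control was -0.20 (SE 0.18, 95% interval -0.58 to 0.18, edgeR adjusted p = 0.693). It was -0.03 without DIO+ Vehicle replicates 2 and 4, the libraries with pituitary transcripts, and -0.38 without DIO+ Vehicle replicate 6.

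**Figure D2:**
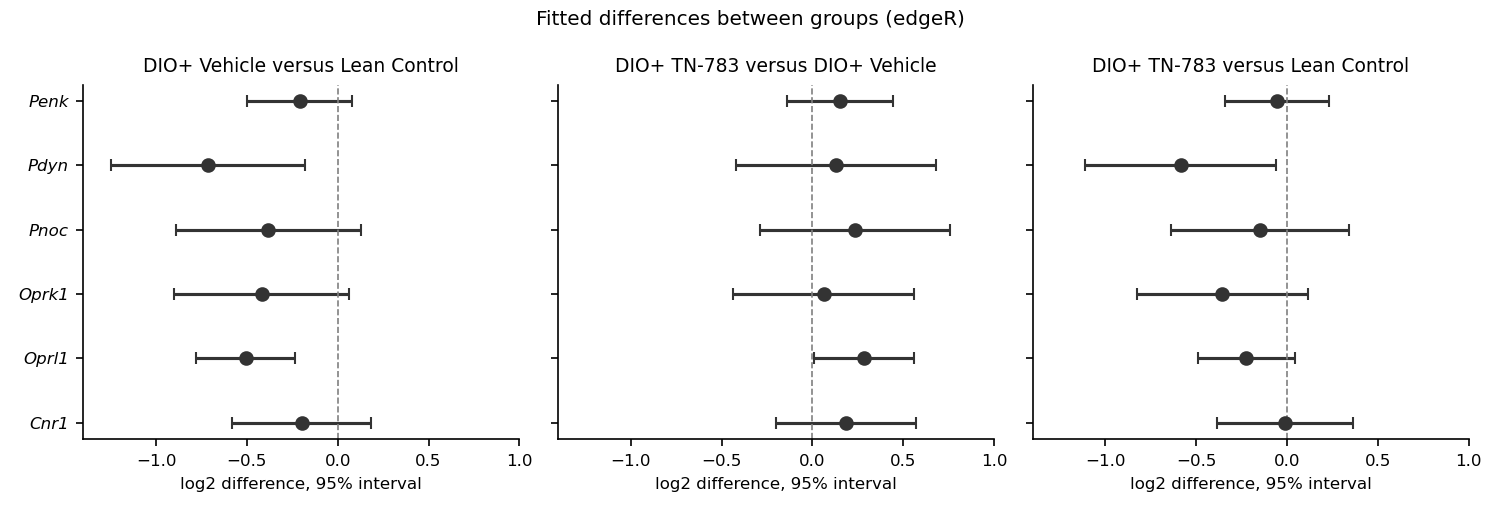
Log2 differences (horizontal axis, points) with 95% intervals (lines) of the 6 tested genes from the edgeR fit, 1 panel per comparison, with a dashed line at 0. In the first panel the intervals of Pdyn (-1.25 to -0.18) and Oprl1 (-0.78 to -0.23) lie below 0, and in the second panel Oprl1 (0.01 to 0.56) is the one gene whose interval does not reach 0. Its adjusted p there was 1.00.

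The comparison of DIO+ TN-783 with DIO+ Vehicle asks what the NLRP3 inhibitor changed in obese mice, and here 0 of the 6 tested genes passed, as did 0 of all genes. DESeq2 also called 0. One of the 6, Oprl1, lay below an unadjusted p of 0.05, where 2.61% of all tested genes did. Oprl1 averaged 73.5 CPM with TN-783 and 60.7 CPM with vehicle, a log2 difference of 0.28 (SE 0.13, 95% interval 0.01 to 0.56, unadjusted p = 0.0442, edgeR adjusted p = 1.00). Of 6 TN-783 libraries 5 were above the vehicle median and 4 above every vehicle library. DIO+ TN-783 replicate 4, at 54.0 CPM, was the exception. Leaving out 1 library at a time moved the difference between 0.21 and 0.35.

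For the other 5 genes the same comparison gave log2 differences of 0.15 for Penk, 0.13 for Pdyn, 0.23 for Pnoc, 0.06 for Oprk1 and 0.19 for Cnr1, each with an edgeR adjusted p of 1.00. Without DIO+ Vehicle replicates 2 and 4, the libraries with pituitary transcripts, these values were 0.072 for Penk, 0.082 for Pdyn, 0.18 for Pnoc, 0.12 for Oprk1 and 0.021 for Cnr1, and 0.21 for Oprl1. The median over the 6 was 0.17, and over all tested genes it was -0.0047. All 6 were above 0, where 51.3% of all tested genes were below it. The intervals were wide for the dynorphin pair: -0.42 to 0.68 for Pdyn and -0.44 to 0.56 for Oprk1. Pdyn was at -0.02 without DIO+ TN-783 replicate 6, its highest library, and at 0.022 with the RNA integrity score in the fit. With single libraries left out, Cnr1 ran from 0.090 without DIO+ TN-783 replicate 5 to 0.37 without DIO+ Vehicle replicate 6, and Penk from 0.085 without DIO+ TN-783 replicate 6 to 0.26 without DIO+ Vehicle replicate 6. Pnoc ran from 0.12 without DIO+ TN-783 replicate 5 to 0.36 without DIO+ Vehicle replicate 5. Since the vehicle libraries enter both this comparison and that with lean mice, values above 0 here and below 0 there for the same genes are not independent of each other.

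Set against lean mice directly, DIO+ TN-783 mice differed by -0.59 in Pdyn (SE 0.25, unadjusted p = 0.0302, edgeR adjusted p = 0.611), with 6 of 6 libraries below the lean median. For Oprl1 the value was -0.22 (SE 0.13, edgeR adjusted p = 0.630) and for Oprk1 -0.36 (SE 0.23, edgeR adjusted p = 0.639). Penk, Pnoc and Cnr1 were at -0.06, -0.15 and -0.01, so that all 6 were below 0, where 50.9% of all tested genes were. Single libraries moved these values. Oprl1 was at -0.13 without Lean Control replicate 2, Oprk1 at -0.53 without DIO+ TN-783 replicate 2 and -0.23 without Lean Control replicate 3, and Pnoc at -0.26 without DIO+ TN-783 replicate 5 and -0.048 without Lean Control replicate 5. With the RNA integrity score in the fit Oprk1 was at -0.16, Pnoc at -0.068 and Penk at -0.020. Of the 6 genes 0 passed, as did 0 of all genes (0%), and 1 of the 6 had an unadjusted p below 0.05, where 8.16% of all tested genes did. In the combined comparison of both DIO groups with lean mice, 0 of the 6 passed beside 1 of 11835 genes (0.00845%), 2 of the 6 had an unadjusted p below 0.05 (12.9% of all tested genes) and all 6 were below 0 (50.1%). There Oprl1 differed by -0.37 (SE 0.11, unadjusted p = 0.00310, edgeR adjusted p = 0.260), with 11 of 12 obese mice below the lean median. Pdyn and Oprl1 both passed there without Lean Control replicate 6 (edgeR adjusted p = 0.0279 and 0.0271) and in limma voom with sample weights (adjusted p = 0.0364 and 0.0372, 2.91% of genes lower). Over the 30 alternatives the adjusted p of Oprl1 ran from 0.0271 to 0.528. They also passed in edgeR without the 3 libraries that stood apart (edgeR adjusted p = 0.0490 and 0.0422, 3.5% of genes lower).

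**Figure D3:**
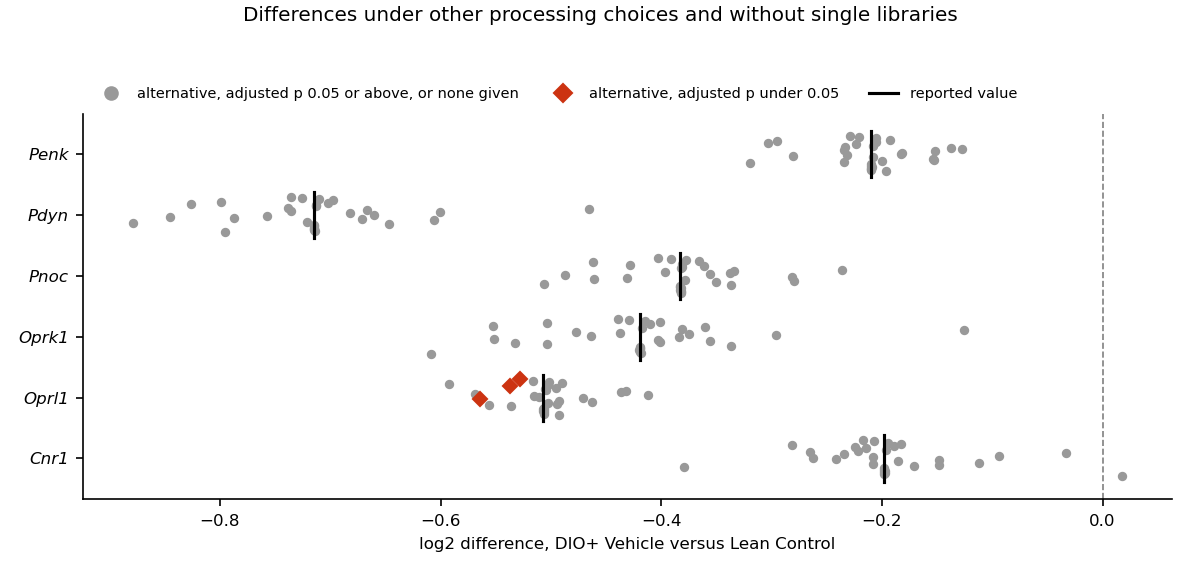
Log2 differences for DIO+ Vehicle versus Lean Control (horizontal axis) of the 6 tested genes under 31 other processing choices and left-out libraries (points), beside the reported value (black line). Red diamonds, with an adjusted p under 0.05, occur for Oprl1 alone, whose values lie between -0.59 and -0.41, and Pdyn lies between -0.88 and -0.47.

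Levels of some opioid genes were correlated over the 18 libraries. Of 15 pairs among the 6 tested genes, 4 had a Benjamini-Hochberg adjusted permutation p below 0.05 for log2 CPM over the 18 libraries. The share over pairs of all tested genes was not computed, so the count cannot be set against other genes. The permutations ignored group, so these p-values mix differences between groups with spread among animals. Pdyn and Oprl1 had Pearson's r of 0.746 (Spearman's rho 0.738, adjusted permutation p = 0.0063 and 0.0106), 0.698 without the 2 libraries farthest from the Pdyn median, and 0.666 on deviations from group means. Within groups r was 0.647 in lean, 0.255 in DIO+ Vehicle and 0.983 in DIO+ TN-783 mice. Penk and Oprl1 had r of 0.717 (rho 0.686, adjusted permutation p = 0.00742 and 0.0126), 0.650 without 2 libraries, and 0.719, 0.694 and 0.791 within the lean, DIO+ Vehicle and DIO+ TN-783 groups.

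Penk and Pdyn had r of 0.677 (rho 0.672, adjusted permutation p = 0.0116 and 0.0126), 0.532 without 2 libraries, and 0.981, 0.301 and 0.771 within the same 3 groups. Pdyn and the dynorphin receptor gene Oprk1 had r of 0.643 (rho 0.666, adjusted permutation p = 0.0167 and 0.0126), 0.619 without 2 libraries, and 0.789, 0.549 and 0.365 within groups. On deviations from group means r was 0.705 for Penk and Oprl1, 0.670 for Penk and Pdyn, and 0.576 for Pdyn and Oprk1. Cnr1 was in none of the 4 pairs. Its r with Pdyn was 0.0265 (rho 0.0258, adjusted permutation p = 0.917 and 0.921). All pairs share the composition and scaling of each library.

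RNA integrity moved with some of the same genes. The score spanned 9.4 to 10 in lean, 9.5 to 9.9 in DIO+ Vehicle and 9.6 to 9.7 in DIO+ TN-783 samples, with medians of 9.55, 9.75 and 9.65. Over 18 libraries Oprk1 was lower where the score was higher. Its r was -0.755 and its rho -0.722 (Benjamini-Hochberg adjusted permutation p = 0.00126 and 0.00588 over 6 genes). Its r was -0.630 without 2 libraries with scores far from the median. These were Lean Control replicate 6 and 1 of the libraries tied at the next distance, with scores of 9.4 and 9.9. Within groups r was -0.938 in lean, -0.891 in DIO+ Vehicle and 0.0210 in DIO+ TN-783 mice, where the score had 2 values. Pdyn had r of -0.635 and rho of -0.677 (adjusted permutation p = 0.0143 and 0.00846), -0.597 without 2 libraries, and -0.826, -0.485 and -0.580 within groups. Pnoc had r of -0.486 and rho of -0.563 (adjusted permutation p = 0.0838 and 0.0356), -0.499 without 2 libraries, and -0.543, -0.279 and -0.645 within groups. For Penk, r was -0.407 and rho -0.382 (adjusted permutation p = 0.113 and 0.142). For Oprl1, r was -0.452 and rho -0.443 (adjusted permutation p = 0.0898 and 0.10), and for Cnr1 0.132 and 0.0718 (0.603 and 0.777). With the score as a covariate the DIO+ Vehicle versus Lean Control difference was -0.43 for Oprl1, -0.47 for Pdyn and -0.24 for Pnoc (edgeR adjusted p = 0.537, 0.761 and 0.923).

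**Figure D4:**
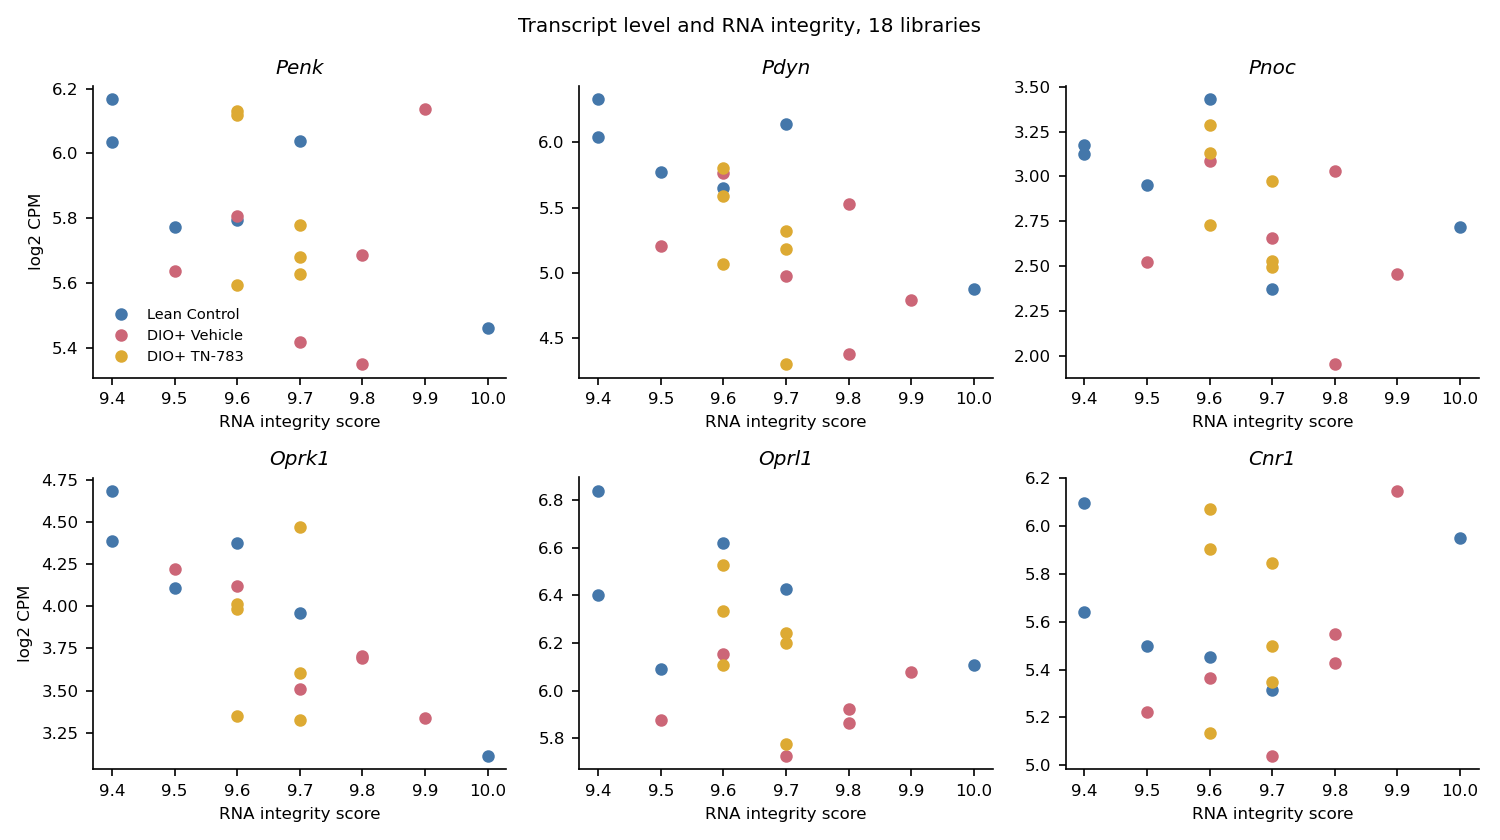
Log2 CPM (vertical axes, ranges differ) against the RNA integrity score for the 6 tested genes, 1 point per library, coloured by group. Oprk1 (r = -0.755) and Pdyn (r = -0.635) are lower at higher scores, Cnr1 has r = 0.132, and Lean Control replicate 6 is the point at a score of 10.

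The other genes of opioid and cannabinoid signalling were read from 11 lists of 92 genes that include the 8 above. The lists were chosen with earlier results of these data known. Their shares below a threshold therefore cannot show that these genes stand out from all genes. Of the other 84 genes, 73 were tested and 0 passed in any comparison. For DIO+ Vehicle versus Lean Control, 15 of the 73 (20.5%) had an unadjusted p below 0.05, 8 lower and 7 higher, beside 10.9% of all tested genes. Their median log2 difference was -0.03. For DIO+ TN-783 versus DIO+ Vehicle it was 4 of 73 (5.48%), all lower, beside 2.61% of all tested genes. These 4 were Pomc, Pcsk2, Pcsk1 and Necab2, with unadjusted p of 0.00455, 0.00714, 0.0193 and 0.0401, and Pomc was also 1 of the 7 higher in DIO+ Vehicle than in Lean Control mice.

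These counts rested in part on the libraries that stood apart. Without DIO+ Vehicle replicates 2 and 4, a count made after seeing the data, 12 of the 73 (16.4%) were below 0.05 for DIO+ Vehicle versus Lean Control, 6 lower and 6 higher, beside 10.5% of all tested genes. For DIO+ TN-783 versus DIO+ Vehicle the count was then 3 (4.11%), with Adcy1 and Necab1 lower and Pomc higher, beside 2.13% of all tested genes, and none of Pcsk1, Pcsk2 and Necab2 was below 0.05. Without Lean Control replicate 6, 19 of the 73 (26%) were below an unadjusted p of 0.05 for DIO+ Vehicle versus Lean Control. The share of all tested genes was then 21.6%. Without the 3 libraries that stood apart the count was 16 of the 73 (21.9%), beside 21.1% of all tested genes. Without Lean Control replicate 6 alone, 4 of the 73 passed the adjusted test for DIO+ Vehicle versus Lean Control, beside 2.89% of all tested genes. They were Mgll, Gnai3, Cacna1e and Sst (edgeR adjusted p = 0.0267, 0.0285, 0.0337 and 0.0337), named after their values were seen. For both DIO groups versus Lean Control 12 passed then, beside 6.33% of all tested genes.

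In endocannabinoid breakdown, Mgll, which encodes the lipase that degrades 2-arachidonoylglycerol, was at 77.3 ± 13.5 CPM in lean, 109 ± 20.8 CPM in DIO+ Vehicle and 104 ± 20.5 CPM in DIO+ TN-783 mice (SD, n = 6 each). The Mgll log2 difference for DIO+ Vehicle versus Lean Control was 0.50 (SE 0.14, unadjusted p = 0.00120, edgeR adjusted p = 0.240). Naaa, an acid amidase of fatty acid ethanolamides, was at 25.1 ± 4.57, 18.9 ± 4.00 and 17.9 ± 3.18 CPM, a log2 difference of -0.40 (SE 0.16, edgeR adjusted p = 0.389). These were the 2 of 5 tested breakdown genes with an unadjusted p below 0.05 for that comparison, beside 10.9% of all tested genes. Of 5 tested synthesis genes 0 had an unadjusted p below 0.05. Abhd4, an enzyme on a route to anandamide, was at 72.3, 89.6 and 95.1 CPM, with a log2 difference for DIO+ Vehicle versus Lean Control of 0.32 (SE 0.22, edgeR adjusted p = 0.594). Daglb, which makes 2-arachidonoylglycerol, was at 11.7, 10.4 and 11.6 CPM (-0.19, SE 0.19, edgeR adjusted p = 0.711), and Dagla, which encodes the main brain enzyme for 2-arachidonoylglycerol, was at 19.6, 21.9 and 17.9 CPM. Among 4 tested receptor and partner genes the intracellular Cnr1 partner Cnrip1 was at 47.3, 47.2 and 50.8 CPM. The calcium-binding proteins encoded by Necab2 and Necab1 are on the same list. Necab2 was at 8.37, 10.1 and 7.25 CPM (0.29 for DIO+ Vehicle versus Lean Control, SE 0.23, edgeR adjusted p = 0.636) and Necab1 at 31.3, 30.1 and 26.7 CPM (-0.07, SE 0.15, edgeR adjusted p = 0.885).

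In peptide processing, 1 of 9 tested genes was below an unadjusted p of 0.05 for DIO+ Vehicle versus Lean Control, beside 10.9% of all tested genes. It was Cpe, the carboxypeptidase that trims basic residues from cut precursors, at 1967 ± 278 CPM in lean, 2484 ± 380 CPM in DIO+ Vehicle and 2360 ± 324 CPM in DIO+ TN-783 mice (log2 difference 0.34, SE 0.13, edgeR adjusted p = 0.358). Scg5, which encodes the chaperone 7B2 of the convertase Pcsk2, was next by p, at 194, 227 and 196 CPM (0.23, SE 0.12, edgeR adjusted p = 0.481). The convertases Pcsk1 and Pcsk2, which cut at the basic pairs shown in the sequences above, were the genes of this list below it for DIO+ TN-783 versus DIO+ Vehicle. Their log2 differences were -0.66 and -0.61 (edgeR adjusted p = 1.00 for both), with vehicle means of 34.0 ± 19.2 and 70.8 ± 31.9 CPM. The SD of Pcsk1 and Pcsk2 in DIO+ TN-783 mice was 2.82 and 5.94 CPM. Without DIO+ Vehicle replicates 2 and 4 the differences of Pcsk1 and Pcsk2 were 0.0035 and -0.13 (unadjusted p = 0.984 and 0.353). Pomc, the fourth opioid precursor, was at 6939 and 3275 CPM in DIO+ Vehicle replicates 2 and 4 and at 9.26 to 32.7 CPM in the other 4 vehicle libraries, the same 2 libraries that held prolactin. Lean libraries had 26.0 to 48.9 CPM of Pomc and DIO+ TN-783 libraries 10.3 to 156 CPM. The fitted log2 difference of Pomc was 5.62 for DIO+ Vehicle versus Lean Control and -4.88 for DIO+ TN-783 versus DIO+ Vehicle, and without those 2 libraries it was -0.67 and 1.41 (edgeR adjusted p = 0.725 and 1.00). Of 5 tested peptidases that degrade enkephalin 0 were below an unadjusted p of 0.05 for DIO+ Vehicle versus Lean Control, and Mme, which encodes neprilysin, was at 4.504, 5.71 and 4.58 CPM (0.38, SE 0.26, edgeR adjusted p = 0.578). Npepps, the puromycin-sensitive aminopeptidase gene, was at 149, 138 and 127 CPM (-0.12, SE 0.10, edgeR adjusted p = 0.655).

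Downstream of the receptors, genes with an unadjusted p below 0.05 for DIO+ Vehicle versus Lean Control were counted per list. They were 4 of 12 Gi/o subunit genes, 4 of 11 tested effector genes and 0 of 13 tested receptor-regulation genes, beside 10.9% of all tested genes. In the first 2 lists they were split evenly between lower and higher. Gng7, a gamma subunit that is also on the striatum marker list, was at 13.1 ± 2.83 CPM in lean and 20.4 ± 8.25 CPM in DIO+ Vehicle mice (log2 difference 0.67, SE 0.22, edgeR adjusted p = 0.314). Gnai3, an inhibitory alpha subunit, differed by 0.38 (SE 0.14, edgeR adjusted p = 0.359). Adcy1, an adenylyl cyclase, was at 25.4 ± 4.65 and 44.8 ± 19.0 CPM (0.82, SE 0.22, edgeR adjusted p = 0.242), and Cacna1e, a calcium channel subunit, at 35.9 ± 8.62 and 23.9 ± 6.45 CPM (-0.60, SE 0.19, edgeR adjusted p = 0.314). The arrestin gene Arrb1, of the receptor-regulation list, differed by 0.18 (SE 0.09, edgeR adjusted p = 0.481), and the receptor kinase gene Grk6 by -0.28 (SE 0.18, edgeR adjusted p = 0.561).

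Peptides of hypothalamic neurons known to make opioids were read beside Pdyn. Oxt, which encodes oxytocin, was at 65.6 to 170 CPM in lean (median 126), 41.2 to 93.8 CPM in DIO+ Vehicle (median 65.2) and 23.6 to 90.4 CPM in DIO+ TN-783 mice (median 72.0), with overlapping groups. Its log2 difference for DIO+ Vehicle versus Lean Control was -0.94 (SE 0.29, edgeR adjusted p = 0.314). Sst, which encodes somatostatin, differed by -0.47 (SE 0.17, edgeR adjusted p = 0.351) and Avp, which encodes vasopressin, by -0.94 (SE 0.44, edgeR adjusted p = 0.459). These were the 3 of 9 tested genes of the list below an unadjusted p of 0.05, all lower, beside 10.9% of all tested genes. Hcrt, the orexin precursor, differed by 0.17 (edgeR adjusted p = 0.872), and Kiss1 had 4, 0 and 5 counts in the 3 groups.

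Marker levels for other cells and neighbouring regions were compared over the same libraries, and each listed marker had counts in every group. The summed level of 10 general neuron markers was 3891 to 4595 CPM in lean, 3737 to 4803 CPM in DIO+ Vehicle and 3760 to 4542 CPM in DIO+ TN-783 mice. The 14 hypothalamus markers summed to 510 to 778, 444 to 721 and 410 to 607 CPM, and the 10 markers of the striatum, a region rich in Penk and Pdyn, to 72.2 to 102, 88.9 to 139 and 80.7 to 103 CPM. The 5 blood markers summed to 357 to 707 CPM in lean, 320 to 2256 CPM in DIO+ Vehicle and 1182 to 2144 CPM in DIO+ TN-783 mice, with medians of 545, 1354 and 1395 CPM. The 6 oligodendrocyte markers summed to 2407 to 6197, 3049 to 7380 and 3500 to 6831 CPM, with medians of 2962, 4731 and 4282 CPM, and the 6 astrocyte markers had medians of 2744, 3210 and 3265 CPM. The 6 microglia markers had medians of 222, 193 and 215 CPM. Hypothalamus markers had medians of 656, 578 and 562 CPM and general neuron markers 4421, 4318 and 4201 CPM. The 3 glutamate neuron markers had medians of 255, 218 and 217 CPM and the 6 GABA neuron markers 535, 496 and 545 CPM. Medians of blood, oligodendrocyte, astrocyte, striatum, thalamus, endothelium and anterior pituitary markers were higher in both DIO groups than in lean mice. Striatum markers had medians of 90.55 CPM in lean, 99.33 CPM in DIO+ Vehicle and 94.98 CPM in DIO+ TN-783 mice. Medians of hypothalamus, general neuron, glutamate neuron, microglia, and cortex and hippocampus markers were lower in both DIO groups. Single hypothalamus markers moved both ways. By group means Oxt was at 121, 62.8 and 64.0 CPM and Avp at 75.8, 38.9 and 32.4 CPM. Pmch was higher in both DIO groups, at 112, 177 and 150 CPM. The part of these shifts in the differences of Pdyn and Oprl1 was not tested.

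**Figure D5:**
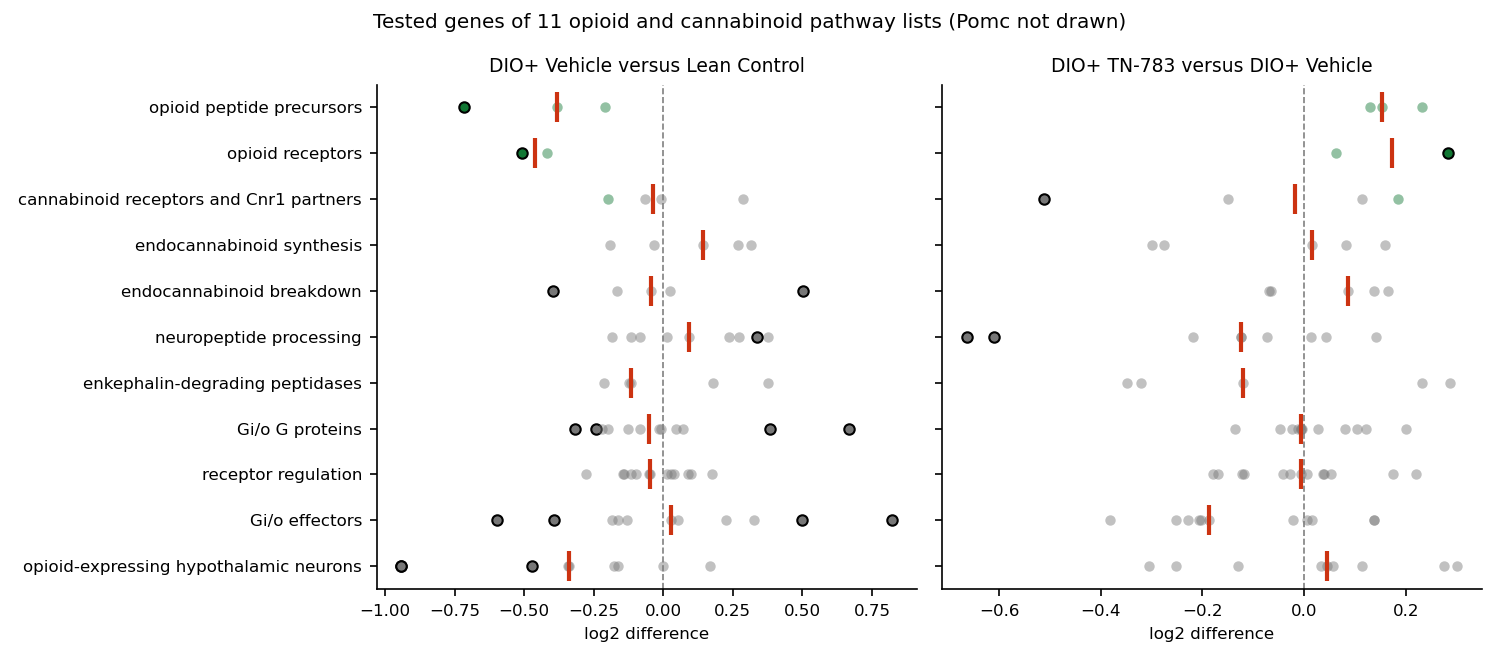
Log2 differences (horizontal axes) of the tested genes in 11 lists (rows) for 2 comparisons. Penk, Pdyn, Pnoc, Oprk1, Oprl1 and Cnr1 are in green and other genes in grey. An outline marks an unadjusted p under 0.05, and a red line marks each list's median over the genes drawn. Pomc is left out because 2 vehicle libraries held 6939 and 3275 CPM of it. Opioid precursors and receptors lie below 0 in the left panel and above 0 in the right, and the 2 panels share the vehicle libraries.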

How the data were processed

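Hypothalamus RNA from 18 mice was sequenced with a 3' mRNA kit that adds unique molecular identifiers, according to the labels' protocols. GRCm39, Salmon 1.10.1, STAR 2.7.9a, R 4.5.1 and edgeR 4.6.2 appear in the submitters' processing notes, with no roles. Identifier collapsing and strand use were not given in the sources used here. For 56980 features the authors deposited estimated counts (12.0% of values not whole), a scaling ratio per library, log2 CPM values (recomputed here to within 8.88e-15) and an RNA integrity score per sample.

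Counts were rounded, which replaced the design's assumption of whole counts. Genes were kept by filterByExpr (minimum count 10; 11835 genes) and fitted over all 3 groups in R 4.3.3 by the robust quasi-likelihood test of edgeR 4.0.16 after TMM scaling, with 15 residual degrees of freedom, a common biological coefficient of variation of 0.169, and Benjamini-Hochberg adjustment over all tested genes at 0.05. CPM values use TMM-scaled library sizes. Correlations used 100000 permutations over all 18 libraries without regard to group. The labels call the samples biologically independent, and p-values of group differences are therefore set against animal-to-animal spread. No 2 libraries had identical values (highest correlation 0.982). The edgeR test was also tried on simulated data, and no result of that trial is given or used here.

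The 8 genes and all lists were chosen with earlier results of these data known. For DIO+ Vehicle versus Lean Control the text names, from each pathway list, up to 4 called genes or, where none was called, the 2 other than the 8 genes with the smallest p. The other comparisons name only some of these genes. Avp, Hcrt, Kiss1, Dagla and Cnrip1 were named after their values were seen. Alternatives were limma 3.58.1 (voom), DESeq2 1.42.0, other scalings, other filters, a fit of only the compared groups, a replicate block, an RNA integrity covariate and left-out libraries. Correlations between same-numbered libraries of different groups ranged from -0.400 to 0.385. The 3 of 18 above 0.1 were Lean Control with DIO+ Vehicle for replicates 4, 5 and 6 (0.234, 0.143 and 0.385). Differently numbered libraries were not correlated for comparison, so this cannot settle whether numbers mark pairs. Numbers were not treated as pairs.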

Additional observations from a re-analysis of the deposited data

Results flagged for a closer look

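Cnr1 in DIO+ Vehicle replicate 6 was at 69.9 CPM, while the next highest vehicle library was at 46.0 CPM, a gap of 0.633 of the group's range against a critical value of 0.625 for 6 samples. Chance marks about 1 in 20 groups in this way, and 1 of 18 groups (6 genes in 3 groups) was marked here.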

How the results depend on the processing

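With all 31 alternatives, 0 of the 6 tested genes passed for DIO+ TN-783 versus DIO+ Vehicle and for DIO+ TN-783 versus Lean Control. For DIO+ Vehicle versus Lean Control, 1 passed (Oprl1) with no expression filter and in limma voom, and 0 to 1 when single libraries were left out. For both DIO groups versus Lean Control, where 30 alternatives gave a value because the fit of the compared groups alone does not apply, 2 (Pdyn and Oprl1) passed in limma voom, 0 to 2 with single libraries left out, and 2 without Lean Control replicate 6 and DIO+ Vehicle replicates 2 and 4, an alternative chosen after seeing the data. Without Lean Control replicate 6 the count over all genes was 346 in place of 1 for DIO+ Vehicle versus Lean Control and 758 in place of 1 for both DIO groups. Other counts over all genes for DIO+ Vehicle versus Lean Control were 126 with no filter, 22 in DESeq2 and 146 in voom, and for both DIO groups 128, 39 and 707. For DIO+ TN-783 versus DIO+ Vehicle the count over all genes was 6 with no filter and 0 in the other alternatives. The cause of these shifts was not tested.

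Signs turned in these cases. Cnr1 was at 0.018 for DIO+ Vehicle versus Lean Control, 0.040 for DIO+ TN-783 versus Lean Control and 0.029 for both DIO groups without those 3 libraries together. For DIO+ TN-783 versus Lean Control it was 0.0053 with upper-quartile scaling, 0.012 in voom, and -0.11 to 0.095 with single libraries left out. For both DIO groups that range was -0.20 to 0.00058, and for Penk in DIO+ TN-783 versus Lean Control -0.13 to 0.0043. For DIO+ TN-783 versus DIO+ Vehicle, Oprk1 was at -0.038 with the RNA integrity covariate and -0.11 to 0.18 with single libraries left out, and Pdyn at -0.020 to 0.29. The replicate block treats numbers as pairs, which was not done in the main fit. It left 0 genes called in every comparison, with Oprl1 at -0.50 and Pdyn at -0.74 for DIO+ Vehicle versus Lean Control. Depth limits Oprm1, Oprd1 and Pnoc, which had at most 7, 4 and 33 counts per library.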

Other observations

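Genes whose levels varied most like those of the opioid genes, as Pearson's r of log2 CPM deviations from group means over the 18 libraries, are given as a description. They share each library's composition, and Pnoc, Oprm1 and Oprd1 had too few counts to be ranked. For Pdyn they were Nos1ap (r = 0.940), Fstl4 (0.933) and Ahi1 (0.920). For Penk they were Slc7a14 (0.897), Arhgap36 (0.860) and Grin1 (0.859), which encodes an NMDA receptor subunit. For Oprk1 they were Mfsd5 (0.907), Sppl3 (0.900) and Vangl2 (0.881). For Oprl1 they were Sgsm1 (0.854), Pgap4 (0.840) and Atp6v0c (0.814). For Cnr1 they were Ndrg4 (0.862), Galnt16 (0.856) and Lonrf2 (0.854). No gene was on more than 1 of these lists.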
